A study of Homo sapiens with 12 samples.

Results

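The genes described here are the proteasome subunit genes whose symbols begin with PSMA, PSMB, PSMC or PSMD and end in a number, without PSMB8 and PSMB9. The symbol table of the series held 34 such genes among 31654 gene rows, and 33 of them were expressed well enough to be tested. RNA from 4 human glioblastoma cell lines was sequenced with 3 libraries each, 12 in all. U251TR and U87TR are temozolomide-resistant lines that were selected in the submitters' laboratory by repeated culture in rising concentrations of this alkylating drug, and U251MG and U87MG are the parental lines they came from. All 4 lines were grown in the same medium (DMEM with fetal bovine serum), and no label gives drug in the medium at harvest. Each resistant line is a single derived line, so resistance and any other change acquired during derivation cannot be told apart, and whether a line's 3 libraries are separate cultures is not given. The p-values below therefore measure the spread between libraries, which may be technical.

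The proteasome is the protease that breaks down most ubiquitin-tagged proteins of a cell. Its core is a barrel of stacked alpha and beta rings. Gates in the alpha rings admit unfolded protein, and 3 kinds of beta subunit (PSMB5, PSMB6 and PSMB7) cut it. A regulatory particle caps the barrel. Its base holds a ring of ATPases (PSMC genes) that unfold substrates and pull them in, and scaffold and receptor subunits (PSMD1, PSMD2 and PSMD4). Its lid (the other PSMD subunits) includes PSMD14, the enzyme that removes ubiquitin chains. When proteasome activity falls short, the membrane-bound transcription factor NFE2L1 is known to be released and to raise most subunit genes together through antioxidant response elements in their promoters.

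Not every gene that the symbols selected belongs to the constitutive particle. PSMB10 codes for the immunoproteasome subunit that takes the place of PSMB7. PSMB11 codes for a subunit of the thymus, and it was listed between 0 and 0.02 FPKM and was not tested. PSMD5, PSMD9 and PSMD10 code for chaperones that help assemble the base and leave the finished particle. The alpha subunit genes PSMA1, PSMA2 and PSMA8 were not analysed here. The tested genes comprised 5 of the alpha ring, 4 structural and 3 catalytic genes of the beta ring, PSMB10, 6 base ATPases, 3 other base subunits, 8 lid subunits and the 3 base chaperones.

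Promoter windows from RefSeq (GRCh38.p14, 250 bases before to 50 bases after a start site) were matched to 29 of the 34 genes. PSMA7, PSMB1, PSMB6, PSMB7 and PSMD4 had no entry. The windows were searched on both strands for TGACNNNGC, the core of the antioxidant response element. Of the 29 genes, 9 held a match, against 16.1% of 27305 genes with a window. These 9 were PSMA4, PSMB3, PSMC4, PSMC5, PSMD1, PSMD3, PSMD12, PSMD5 and PSMD9. The box CCAAT was found in 16 of 29 (55.2%), against 39.7% of all genes. The windows below belong to 4 genes with a match that were among those higher in U251TR, and to PSMB10, which was lower in U251TR and had no match. They do not stand for all genes. PSMC2, with the largest rise in U251TR, and PSMB4, PSMB2 and PSMA5, also called higher, had no match. PSMD12, PSMD5 and PSMD9 held a match and were not called in U251TR in the deposited scaling. Capitals mark TGACNNNGC on either strand. A match is a string of letters and was not tested as a binding site.
PSMA4 (chr15:78540536-78540835, plus strand): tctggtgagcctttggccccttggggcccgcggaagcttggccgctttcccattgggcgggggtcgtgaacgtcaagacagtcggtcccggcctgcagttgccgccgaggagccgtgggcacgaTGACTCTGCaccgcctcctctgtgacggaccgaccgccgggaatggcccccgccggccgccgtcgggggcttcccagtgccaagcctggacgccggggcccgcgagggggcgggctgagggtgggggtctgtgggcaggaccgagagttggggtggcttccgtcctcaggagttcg
PSMB3 (chr17:38752491-38752790, plus strand): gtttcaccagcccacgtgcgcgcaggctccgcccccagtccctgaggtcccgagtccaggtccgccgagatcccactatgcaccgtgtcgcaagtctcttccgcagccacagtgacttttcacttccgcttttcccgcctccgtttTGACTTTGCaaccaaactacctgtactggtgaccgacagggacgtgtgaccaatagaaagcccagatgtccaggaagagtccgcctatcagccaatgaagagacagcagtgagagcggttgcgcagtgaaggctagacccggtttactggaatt
PSMD3 (chr17:39980557-39980856, plus strand): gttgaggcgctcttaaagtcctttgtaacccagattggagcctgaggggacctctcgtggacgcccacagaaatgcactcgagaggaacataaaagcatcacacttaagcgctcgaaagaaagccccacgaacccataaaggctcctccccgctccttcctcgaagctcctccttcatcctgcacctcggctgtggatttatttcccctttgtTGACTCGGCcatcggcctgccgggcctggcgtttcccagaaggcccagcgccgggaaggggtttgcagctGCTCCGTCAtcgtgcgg
PSMD1 (chr2:231056617-231056916, plus strand): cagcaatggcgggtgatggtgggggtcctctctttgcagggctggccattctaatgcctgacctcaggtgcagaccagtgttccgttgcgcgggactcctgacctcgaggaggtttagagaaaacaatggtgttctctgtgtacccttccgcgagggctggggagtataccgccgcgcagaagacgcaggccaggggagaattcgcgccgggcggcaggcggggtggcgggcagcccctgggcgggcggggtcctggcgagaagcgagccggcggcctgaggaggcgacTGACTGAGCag
PSMB10 (chr16:67936801-67937100, minus strand): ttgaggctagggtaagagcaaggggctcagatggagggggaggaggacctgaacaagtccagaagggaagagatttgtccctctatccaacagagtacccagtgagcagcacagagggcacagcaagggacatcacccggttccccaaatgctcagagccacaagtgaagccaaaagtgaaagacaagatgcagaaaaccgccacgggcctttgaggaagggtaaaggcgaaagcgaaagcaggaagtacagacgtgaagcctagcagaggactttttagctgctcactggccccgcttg
PSMA4 has 3 windows in this table, and the other 2 held no match. In the PSMA4 window above the match began 126 bases before the start site, in PSMB3 104 bases before it and in PSMD1 39 bases after it. PSMD3 held a pair of matches on opposite strands, 37 bases before and 33 bases after the start site.

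Expression was given as FPKM (fragments scaled to transcript length and to library size), a unit inferred from the values. A gene was tested where it reached 1 FPKM in at least 3 libraries, which left 15449 genes, and a gene is called higher or lower where its adjusted p was under 0.05. Per library, 13135 to 14122 genes reached that level. The table holds no counts, so the depth is unknown. U251MG replicate 2 stood apart from its group, with rank correlations of 0.977 and 0.978 to the other libraries of that line. It was the library farthest from the group's middle value for 25 of 33 proteasome genes (75.8%), against 64.0% of all genes. U87MG replicate 3 held that place for 20 of 33 (60.6%), against 50.2% of all genes. Of 11 glioma or astroglial markers, 10 reached 1 FPKM in every library of U251TR and 10 in every library of U251MG, 7 did so in U87TR and 6 in U87MG. The summed level of these markers ranged from 1928 to 2020.5 FPKM in U251TR, from 2402 to 3820 FPKM in U251MG, from 4438 to 4789 FPKM in U87TR and from 5579 to 6588 FPKM in U87MG. VIM averaged 4051 FPKM in U87TR and 4917 FPKM in U87MG, and CD44 507 FPKM in U87TR and 1045 FPKM in U87MG. Most of the U87 sums came from VIM and CD44, so the sums do not rank the lines by the other markers. In U251MG replicate 2, the library with the highest U251MG sum, VIM had 2474 FPKM. The astrocyte gene GFAP averaged 396 FPKM in U251TR and 22.8 FPKM in U251MG, and 1.75 FPKM in U87TR and 0.753 FPKM in U87MG, while SOX2 and S100B were listed at 0 in all U87MG libraries. Of the 11 glioma or astroglial markers 10 were tested, and 3 were called higher and 6 lower in U251TR. Those called lower included the stem cell gene SOX2, with means of 113 FPKM in U251TR and 219.8 FPKM in U251MG, and the glutamate transporter gene SLC1A3, with 33.2 FPKM in U251TR and 175 FPKM in U251MG. In U87TR 3 were called higher and 3 lower. Neuronal markers (3 genes) summed to between 2.56 and 3.5 FPKM in U251TR and 2.67 and 13.7 FPKM in U251MG, and to between 21.8 and 23.7 FPKM in U87TR and 17.0 and 21.7 FPKM in U87MG. Oligodendrocyte markers summed to at most 6.48 FPKM, epithelial markers to at most 1.19 FPKM, an endothelial marker to at most 0.47 FPKM and blood and immune markers to at most 0.32 FPKM in any library. Transcripts of the mitochondrial genome made up 7.26% to 8.77% of the summed values. The part of these differences in the results was not tested, and in bulk RNA fewer cells of one kind and less RNA per cell cannot be told apart.

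The proteasome genes were abundant in every line, and their levels differed widely between subunits of the same complex. FPKM is scaled to length, so levels can be set side by side between genes. PSMA7, an alpha ring gene, had the highest level of the core genes in each line, with means of 575 FPKM in U251TR, 450.1 FPKM in U251MG, 513 FPKM in U87TR and 527 FPKM in U87MG. PSMB2, a structural beta gene, had the lowest level of the 12 core genes other than PSMB10 and PSMB11 in each line, with 75.5 FPKM in U251TR, 47.6 FPKM in U251MG, 105 FPKM in U87TR and 77.5 FPKM in U87MG. Among these 12 the ratio of the highest to the lowest gene was 7.61 in U251TR, 9.46 in U251MG, 4.87 in U87TR and 6.79 in U87MG. In the regulatory particle PSMD2, the base scaffold that binds shuttle factors, ranked first in each line. Its means were 372 FPKM in U251TR, 306 FPKM in U251MG, 469 FPKM in U87TR and 611 FPKM in U87MG. PSMD5, the chaperone gene, ranked last in each line, at 23.1 FPKM in U251TR, 20.7 FPKM in U251MG, 14.7 FPKM in U87TR and 17.7 FPKM in U87MG. Among the ATPases PSMC6 ranked last in each line, while first place went to PSMC1 in U87TR and to PSMC3 in the other lines. PSMD8 ranked first in the lid in each line. Many neighbours in the order lay within each other's spread, as PSMB1 (286 ± 20.5 FPKM) and PSMB3 (301 ± 28.5 FPKM; SD, n = 3) did in U251TR.

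**Figure D1:**
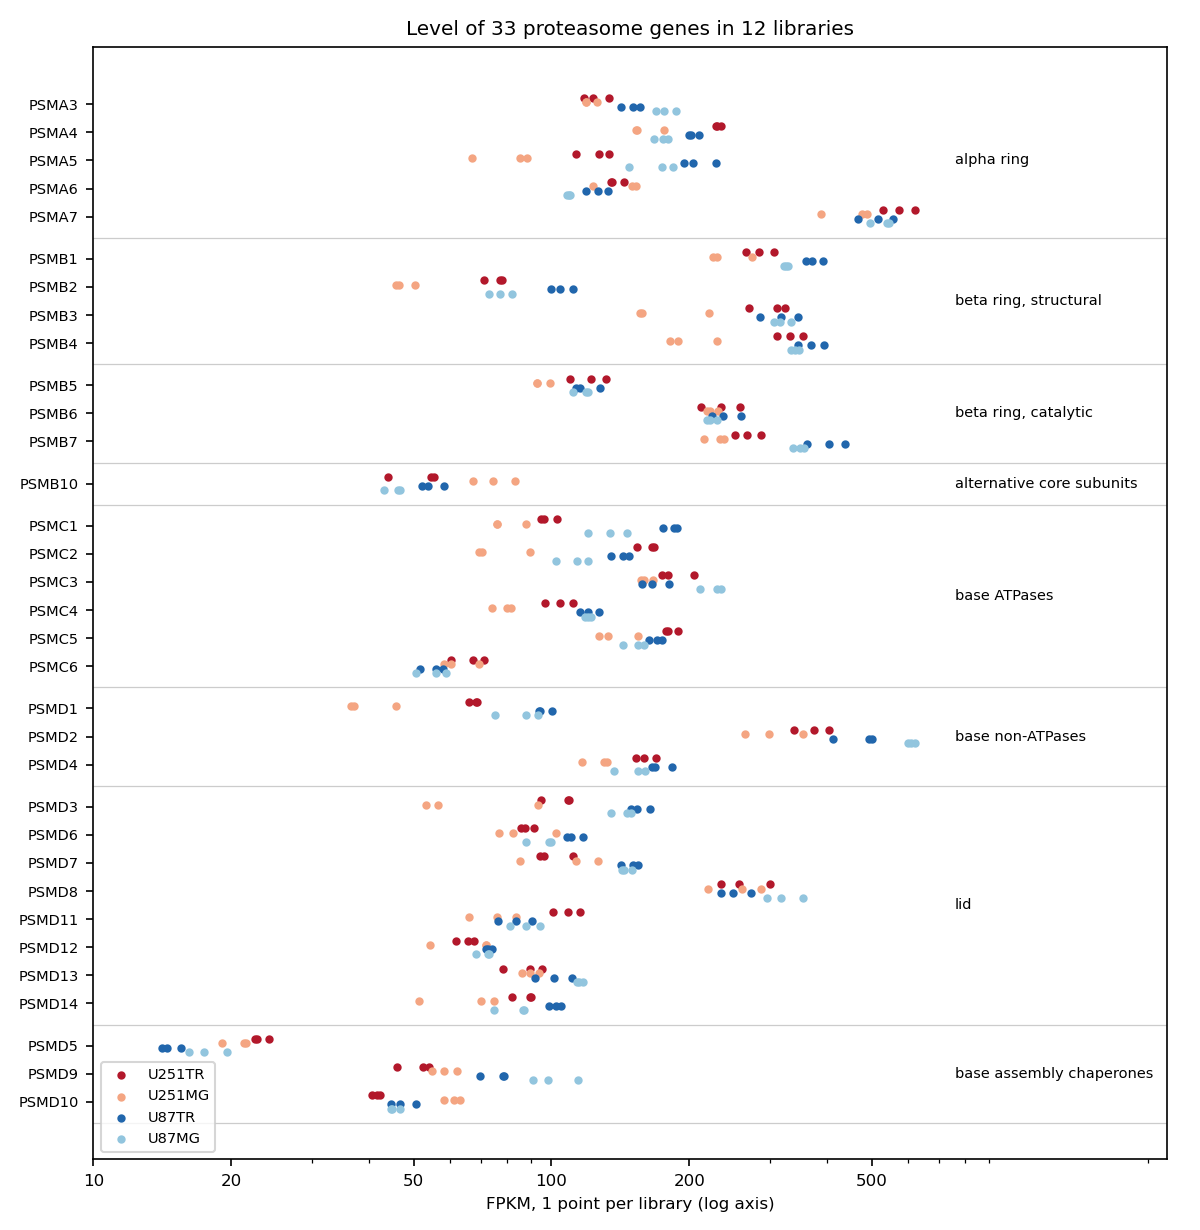
FPKM of the 33 tested genes (log axis), 1 point per library, arranged by place in the particle, with U251TR above U251MG and U87TR above U87MG in each row. PSMA7 lies farthest right among core genes in all 4 lines, and the U251MG points of PSMC2, PSMD1 and PSMB2 lie left of all the other points of their rows.

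The first comparison asked how the subunit genes of resistant U251TR cells differed from those of U251MG. Most of the particle was more highly expressed in U251TR, by modest factors. Of the 33 genes, 20 were called higher and 2 lower, which is 60.6% and 6.06%. Over all tested genes 33.6% were called higher and 19.6% lower, so that 53.2% were called in one direction or the other. The median log2 fold change of the 33 genes was 0.29, against 0.10 over all genes. The 2 genes called lower were PSMB10, the immunoproteasome subunit, and PSMD10, a base chaperone. Libraries did not overlap between the lines for 19 genes that were higher (all genes, 36.4%) and for 3 that were lower (all genes, 22.6%). With median-of-ratios scaling 13 genes were called higher and 3 lower (all genes, 28.1% and 24.5%). Without U251MG replicate 2 the counts were 18 and 3 (all genes, 36.9% and 20.9%).

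Summed over all 34 genes, the level was 4955, 5301 and 5596 FPKM in the U251TR libraries, against 4346, 4276 and 4186 FPKM in the U251MG libraries. Every U251TR library was above every U251MG library, and the ratio of the means was 1.24. With the other scalings this ratio lay between 1.15 (median-of-ratios) and 1.34 (values rescaled to a constant sum). By place in the particle, the sum of the 4 structural beta genes had a ratio of 1.49, the 6 ATPases 1.34, the 3 other base subunits 1.27, the 5 alpha genes 1.25, the 3 catalytic genes 1.14 and the 8 lid genes 1.11. The 3 base chaperones had a ratio of 0.825. These sums were not tested.

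**Figure D2:**
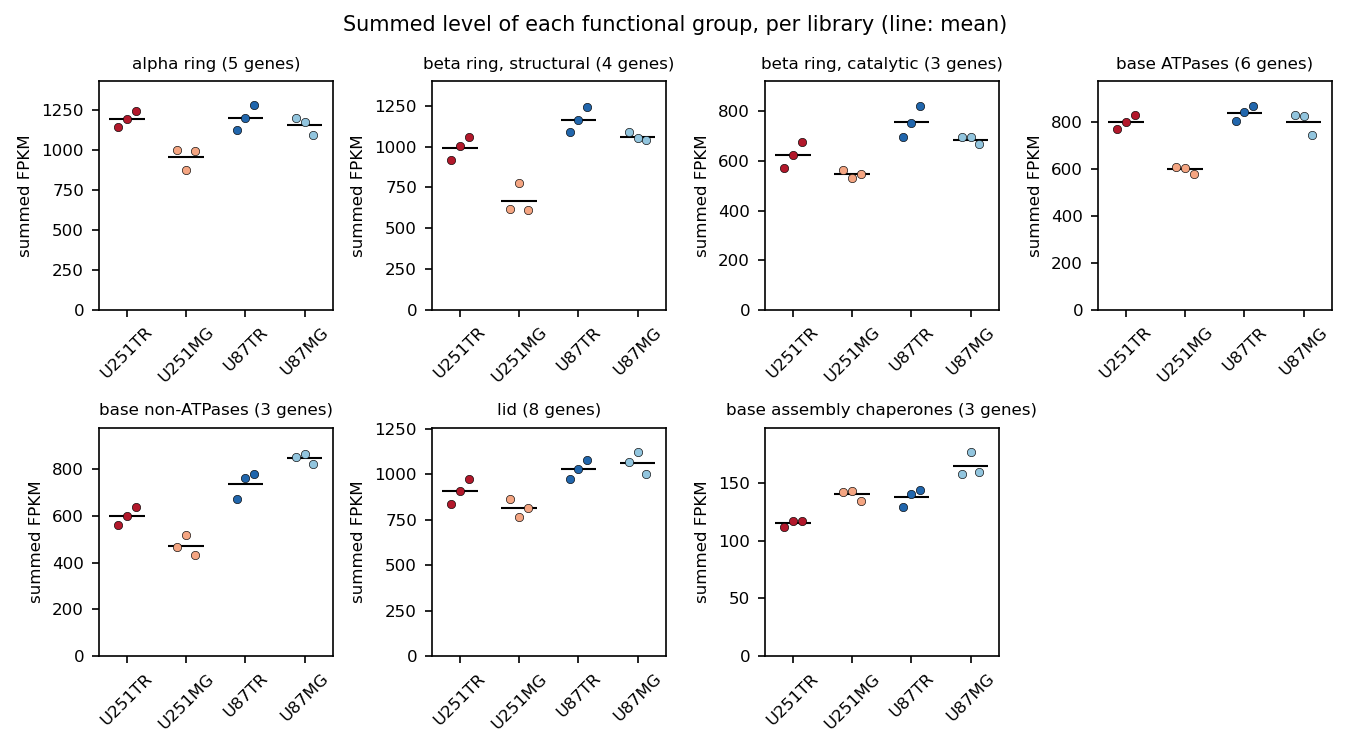
Summed FPKM of each functional group of subunits in each library (points) with the mean of the 3 libraries (line), U251TR and U87TR each left of their parental line. The structural beta genes of U251TR sum to between 916 and 1061 FPKM and lie above all U251MG libraries, which lie between 609.9 and 775 FPKM.

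In the alpha ring 3 of 5 genes were called higher in U251TR. PSMA5, a structural alpha subunit, had 113, 134 and 127 FPKM in U251TR, against 85.2, 67.0 and 88.3 FPKM in U251MG (log2 fold change 0.64, SE 0.12, adjusted p = 0.000768). The lines did not overlap. PSMA4, whose yeast counterpart holds the tail that closes the core gate, had 229, 229 and 235 FPKM in U251TR, against 154, 176 and 153 FPKM in U251MG (log2 fold change 0.52, SE 0.07, adjusted p = 5.49e-05). All U251TR libraries lay within a narrow range above those of U251MG. PSMA7 rose by 0.36 (SE 0.10, adjusted p = 0.0107), a call that median-of-ratios scaling removed. For PSMA5 and PSMA7 the lowest U251MG library was replicate 2, so their rise was smaller without it. Over the 22 alternatives their lowest log2 fold changes were 0.51 and 0.25. PSMA3 and PSMA6 did not pass the test, with log2 fold changes of 0.04 and -0.04.

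All 4 structural beta genes were called higher in U251TR. PSMB3 had 269, 311 and 324 FPKM in U251TR, against 156, 221 and 157 FPKM in U251MG (log2 fold change 0.77, SE 0.13, adjusted p = 0.000322). The lines did not overlap, although U251MG replicate 2 was far above the other U251MG libraries. PSMB4 had 310.2, 331 and 353 FPKM in U251TR, against 189, 230.2 and 182 FPKM in U251MG (log2 fold change 0.73, SE 0.09, adjusted p = 3.7e-05). Here too the highest U251MG library was replicate 2. PSMB2 had 71.3, 77.9 and 77.35 FPKM in U251TR, against 46.5, 50.45 and 45.7 FPKM in U251MG (log2 fold change 0.66, SE 0.08, adjusted p = 1.71e-05). Without U251MG replicate 2, the highest U251MG library for each of these 3 genes, their log2 fold changes were 0.93, 0.84 and 0.70. PSMB1 rose least, by 0.24 (SE 0.08, adjusted p = 0.0321), with overlapping libraries, and it lost its call under 8 of 22 alternatives (adjusted p between 0.00178 and 0.215), without U251TR replicate 2 or 3 and without U251MG replicate 1 or 3 among them.

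Of the 3 catalytic genes, 2 were called higher in U251TR. PSMB5 codes for the chymotrypsin-like site, the main target of proteasome inhibitor drugs. It had 109.7, 122 and 132 FPKM in U251TR, against 92.85, 99.1 and 92.9 FPKM in U251MG (log2 fold change 0.35, SE 0.08, adjusted p = 0.00333). Every U251TR library exceeded every U251MG library. PSMB7, the trypsin-like site, had 252, 267 and 286 FPKM in U251TR, against 238, 215 and 233 FPKM in U251MG (log2 fold change 0.23, SE 0.08, adjusted p = 0.0308). The lines did not overlap, but the call was lost under 7 of 22 alternatives (adjusted p between 0.00122 and 0.255), without U251TR replicate 2 or 3 and without U251MG replicate 2 or 3 among them. PSMB6, the caspase-like site, had 212, 235 and 259 FPKM in U251TR, against 231, 218 and 222 FPKM in U251MG. These ranges overlapped, and PSMB6 did not pass (log2 fold change 0.07, SE 0.08, adjusted p = 0.517), though it was called higher for a constant sum (adjusted p between 0.0377 and 0.988 over 22 alternatives).

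PSMB10 moved the other way. It had 44.1, 54.65 and 55.4 FPKM in U251TR, against 83.25, 67.5 and 74.7 FPKM in U251MG (log2 fold change -0.54, SE 0.10, adjusted p = 0.0008). The lines did not overlap, and the call held under all 22 alternatives. The other immunoproteasome subunits, PSMB8 and PSMB9, both rose, by 0.75 (SE 0.09, adjusted p = 3.1e-05) and 1.83 (SE 0.09, adjusted p = 1.91e-08). Each of the 3 takes the place of one catalytic subunit, so their levels were set over those of their constitutive counterparts. The ratio of PSMB10 to PSMB7 was 0.191 ± 0.015 in U251TR and 0.328 ± 0.019 in U251MG (SD, n = 3). PSMB8 over PSMB5 was 0.948 ± 0.051 in U251TR and 0.718 ± 0.089 in U251MG, and PSMB9 over PSMB6 was 0.542 ± 0.028 in U251TR and 0.157 ± 0.0048 in U251MG (SD, n = 3 each). The libraries of the 2 lines overlapped in none of the 3 ratios, and only the ratio with PSMB10 was lower in U251TR.

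**Figure D3:**
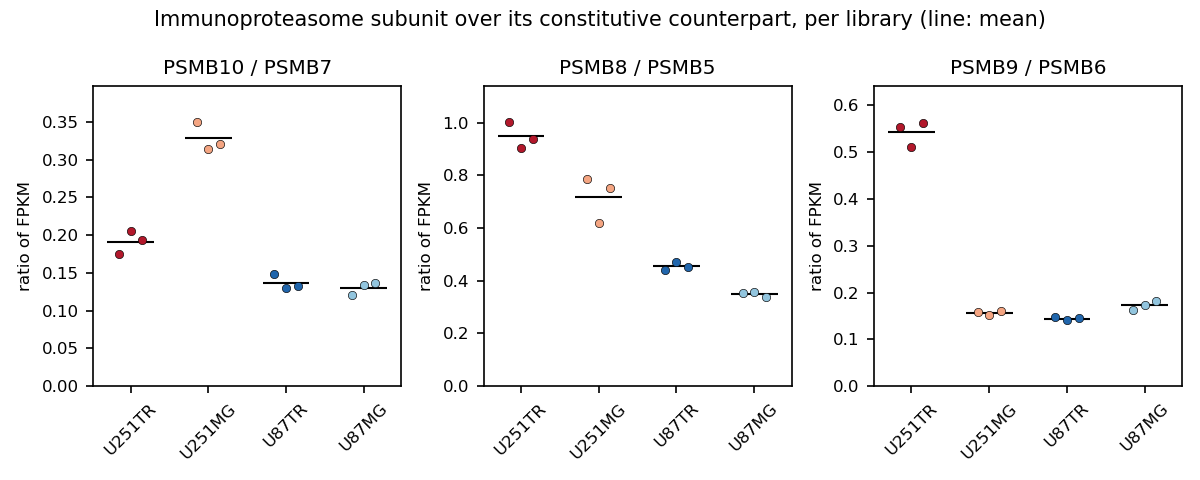
Ratio of the FPKM of each immunoproteasome subunit gene to that of the constitutive gene it replaces, per library (points) with the group mean (line). U251TR is above U251MG for PSMB8 over PSMB5 and PSMB9 over PSMB6, and below it for PSMB10 over PSMB7.

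Of the 6 base ATPases, 5 were called higher in U251TR. PSMC2 had the largest rise of all 33 genes. It had 154, 166 and 168 FPKM in U251TR, against 69.6, 89.6 and 70.6 FPKM in U251MG, a 2.12-fold difference (log2 fold change 1.08, SE 0.10, adjusted p = 2.87e-06). Even the lowest U251TR library was far above the highest U251MG library, which was replicate 2. PSMC2 overlaps PMPCB, a mitochondrial peptidase gene, by the start and end of the genes. Whether their exons overlap was not examined, and the sources used here do not state that strand was used in counting. Whether reads of one gene were counted for the other was not tested. PMPCB itself had 80.2, 81.8 and 86.5 FPKM in U251TR, against 67.8, 73.6 and 69.8 FPKM in U251MG (log2 fold change 0.23, SE 0.07, adjusted p = 0.0121), a smaller difference than that of PSMC2 and one not called with median-of-ratios factors or without U251MG replicate 1 (adjusted p between 0.00131 and 0.126).

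PSMC4 and PSMC5 each rose by 0.40 (SE 0.07 and 0.08, adjusted p = 0.000559 and 0.00122) with no overlap between the lines. PSMC5 overlaps FTSJ3, which rose by 0.30 (SE 0.10, adjusted p = 0.021, between 0.00348 and 0.0807 over the alternatives, and not called without U251TR replicate 2 or U251MG replicate 1 or 3). PSMC1, whose yeast counterpart helps to open the core gate, had 95.1, 96.3 and 103 FPKM in U251TR, against 76.1, 88.1 and 76.2 FPKM in U251MG (log2 fold change 0.29, SE 0.09, adjusted p = 0.0135). Its call was lost with median-of-ratios scaling and without U251TR replicate 3, U251MG replicate 1 or U251MG replicate 3 (adjusted p between 0.00135 and 0.0712 over 22 alternatives). The rise of PSMC3 was smaller still, at 0.21 (SE 0.08, adjusted p = 0.0471), and its call was lost under 13 of 22 alternatives (adjusted p between 0.0023 and 0.339), among them the fits without U251TR replicate 2 or 3, any 1 U251MG library, U87TR replicate 2 and U87MG replicate 1 or 2. PSMC6 did not pass, at 0.08 (SE 0.09, adjusted p = 0.502).

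The 3 other base subunits were all called higher in U251TR. PSMD1, a large scaffold protein of the base, had 68.6, 68.6 and 66.0 FPKM in U251TR, against 37.0, 45.9 and 36.6 FPKM in U251MG (log2 fold change 0.76, SE 0.10, adjusted p = 4.9e-05). The U251TR libraries lay close together and far above those of U251MG. PSMD4, a ubiquitin receptor, rose by 0.35 (SE 0.08, adjusted p = 0.00376). PSMD2 had 339, 374 and 403 FPKM in U251TR, against 299, 354 and 265 FPKM in U251MG (log2 fold change 0.29, SE 0.11, adjusted p = 0.0457). Its ranges overlapped, and its call was lost under 13 of 22 alternatives (adjusted p between 0.00442 and 0.194), among them the fits without U251TR replicate 2 or 3, U251MG replicate 1 or 3, U87TR replicate 2 or 3 and any 1 U87MG library.

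The lid divided. PSMD3, PSMD11 and PSMD14 were called higher in U251TR, and the other 5 lid genes did not pass. PSMD3 had 95.0, 109 and 109 FPKM in U251TR, against 56.6, 93.3 and 53.2 FPKM in U251MG (log2 fold change 0.66, SE 0.16, adjusted p = 0.00504). U251MG replicate 2 came close to the lowest U251TR library, and without it the log2 fold change was 0.91. PSMD11, which helps clamp the lid to the core, had 101, 109 and 115 FPKM in U251TR, against 83.8, 66.1 and 76.2 FPKM in U251MG (log2 fold change 0.52, SE 0.10, adjusted p = 0.000959). PSMD14, the deubiquitinating enzyme, rose by 0.43 (SE 0.12, adjusted p = 0.0109), a call lost with median-of-ratios scaling. For PSMD14 the lowest U251MG library was replicate 2, so the rise was smaller without it. The lowest log2 fold change of PSMD14 over 22 alternatives was 0.26. PSMD7, its partner in the lid, did not pass, at -0.09 (SE 0.12, adjusted p = 0.577). Without U251MG replicate 2 PSMD7 was called lower at -0.25 (adjusted p = 0.0227, the lowest of a range up to 0.884). PSMD6, PSMD8, PSMD12 and PSMD13 had log2 fold changes between -0.04 and 0.05, with signs that turned under other scalings, and their libraries overlapped between the lines.

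Of the 3 base chaperones, 1 was called lower in U251TR and none higher in the deposited scaling. PSMD10, also called gankyrin, binds the ATPase PSMC4 during assembly. It had 41.6, 40.55 and 42.3 FPKM in U251TR, against 61.2, 63.1 and 58.3 FPKM in U251MG (log2 fold change -0.54, SE 0.07, adjusted p = 3.97e-05). Its libraries did not overlap, and the call held under all 22 alternatives. PSMD10 overlaps ATG4A by the start and end of the genes, and whether reads were shared was not tested. ATG4A fell by 0.40 (SE 0.15, adjusted p = 0.0346), a call lost without any 1 U251TR library and without U251MG replicate 2 (adjusted p between 0.00249 and 0.119). PSMD9, which binds PSMC3 and PSMC6, did not pass (log2 fold change -0.20, SE 0.10, adjusted p = 0.115), though it was called lower with median-of-ratios factors and quantile normalization (adjusted p between 0.0232 and 0.428 over the alternatives). PSMD5 did not pass either (0.16, SE 0.09, adjusted p = 0.157), but for a constant sum it was called higher (adjusted p between 0.0438 and 0.606 over the alternatives). Its antisense neighbour PSMD5-AS1 had 30.6, 25.4 and 27.4 FPKM in U251TR, against 23.7, 20.7 and 20.9 FPKM in U251MG. These libraries did not overlap, but PSMD5-AS1 did not pass (log2 fold change 0.34, SE 0.16, adjusted p = 0.102).

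The next comparison asked the same of U87TR and U87MG. Here the called genes went in both directions. Of the 33 genes, 4 were called higher (PSMC1, PSMB2, PSMC2 and PSMA4) and 5 lower (PSMC3, PSMD9, PSMD2, PSMD8 and PSMA3). These 9 are 27.3% of the genes, against 27.8% of all genes tested, of which 10.6% were called higher and 17.2% lower. The median log2 fold change was 0.10, against -0.05 over all genes. Libraries did not overlap for 14 genes that were higher (all genes, 18.3%) and for 7 that were lower (all genes, 28.3%). The split between higher and lower calls depended on the scaling. It was 10 and 4 for values rescaled to a constant sum, 12 and 2 with median-of-ratios factors and 11 and 4 with quantile normalization. Under these scalings between 11.9% and 14.1% of all genes were called higher and between 12.7% and 14.0% lower. A fit on the 6 U87 libraries alone gave 10 and 5 (all genes, 13.0% and 21.4%). The fit without U251MG replicate 2 gave 10 and 6 (all genes, 14.1% and 22.7%). Without U87MG replicate 2 the counts were 2 and 2 (all genes, 7.77% and 11.2%). Without U87MG replicate 3 they were 2 and 6 (all genes, 11.2% and 17.5%). The library codes of U87TR belong to another number block than the codes of the other lines, so that block and resistance cannot be told apart in this comparison.

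The summed level of all 34 genes was 5545, 5942 and 6272 FPKM in U87TR, against 5933, 5963 and 5574 FPKM in U87MG. These values overlapped, and the ratio of the means was 1.02, between 1.04 and 1.08 with the other scalings. The sum of the 3 non-ATPase base subunits was lower in U87TR, with a ratio of 0.871, as was that of the base chaperones with 0.838. Of these 3 base subunits only PSMD2 was lower. PSMD1 and PSMD4 averaged 96.2 and 172.4 FPKM in U87TR, against 85.7 and 150.4 FPKM in U87MG. Their libraries did not overlap between the lines, and neither was called in the deposited scaling. PSMD4 was called higher under the 3 other scalings (adjusted p between 0.0144 and 0.274 over 22 alternatives). Of the chaperones, PSMD10 averaged 47.3 FPKM in U87TR and 45.4 FPKM in U87MG. The lid sum had a ratio of 0.966, which turned to 1.03 with median-of-ratios factors.

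Among the genes called higher in U87TR, PSMC1 had 176, 185 and 188 FPKM in U87TR, against 134, 146 and 119.9 FPKM in U87MG (log2 fold change 0.46, SE 0.09, adjusted p = 0.00215). The lines did not overlap. PSMC1 overlaps NRDE2, which had at most 8.84 FPKM. PSMB2 had 99.8, 105 and 111 FPKM in U87TR, against 82.2, 77.4 and 73.1 FPKM in U87MG (log2 fold change 0.44, SE 0.08, adjusted p = 0.00114). Both calls held under all 22 alternatives. PSMC2 had 135, 143 and 148 FPKM in U87TR, against 120.3, 114 and 102 FPKM in U87MG (log2 fold change 0.34, SE 0.10, adjusted p = 0.0253). PSMA4 had 202, 199 and 209.9 FPKM in U87TR, against 179, 175 and 167 FPKM in U87MG (log2 fold change 0.23, SE 0.07, adjusted p = 0.0299). Libraries of both genes lay apart between the lines, but each call was lost without U87TR replicate 2 or 3 and without U87MG replicate 2 or 3. PSMA4 lost its call also without U87TR replicate 1. Over the alternatives the adjusted p was between 0.00298 and 0.0847 for PSMC2 and between 0.00412 and 0.0938 for PSMA4.

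The genes called lower in U87TR came from different places in the particle. PSMC3, an ATPase, had 158, 166 and 180.4 FPKM in U87TR, against 234, 230.3 and 211 FPKM in U87MG (log2 fold change -0.42, SE 0.08, adjusted p = 0.00225). PSMD9, a chaperone that binds PSMC3 during assembly, had 69.9, 78.5 and 78.7 FPKM in U87TR, against 91.2, 114 and 98.2 FPKM in U87MG (log2 fold change -0.41, SE 0.10, adjusted p = 0.00874). Neither gene's libraries overlapped, and both calls held under all 22 alternatives. PSMD2 had 412, 502 and 494 FPKM in U87TR, against 601, 623 and 609 FPKM in U87MG (log2 fold change -0.39, SE 0.11, adjusted p = 0.022). Although the lines were far apart, its call was lost with median-of-ratios factors, without U87TR replicate 1 and without U87MG replicate 1 or 2 (adjusted p between 0.00602 and 0.0922).

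PSMD8, a lid subunit, had 234, 249 and 272 FPKM in U87TR, against 318, 354 and 295 FPKM in U87MG (log2 fold change -0.35, SE 0.12, adjusted p = 0.0417). PSMA3, an alpha subunit, had 142, 156 and 150.3 FPKM in U87TR, against 187, 176 and 169 FPKM in U87MG (log2 fold change -0.24, SE 0.07, adjusted p = 0.0238). The libraries of both genes lay apart between the lines. PSMD8 lost its call under 10 of 22 alternatives (adjusted p between 0.0168 and 0.162) and PSMA3 under 7 (adjusted p between 0.014 and 0.126). For PSMD8 these included the fits without U251TR replicate 2, U251MG replicate 3, U87TR replicate 1 or 2 and U87MG replicate 1 or 2, and for PSMA3 the 3 other scalings and the fits without U87TR replicate 1 or 3 and U87MG replicate 1 or 2. PSMB5, PSMB6 and PSMB7 did not pass, with log2 fold changes of 0.02, 0.10 and 0.20 (SE 0.08 each). PSMB7 was called higher under the 3 other scalings and without U87TR replicate 1 (adjusted p between 0.0201 and 0.281 over 22 alternatives).

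PSMB10 had 53.7, 52.2 and 58.3 FPKM in U87TR, against 43.1, 46.6 and 46.2 FPKM in U87MG, and it did not pass (log2 fold change 0.27, SE 0.10, adjusted p = 0.0741, between 0.0198 and 0.212 over the alternatives). It was called higher under the 3 other scalings, in the fit on the 6 U87 libraries and without U251TR replicate 1 or U251MG replicate 2. Every U87TR library was above every U87MG library. The ratio of PSMB10 to PSMB7 was 0.137 ± 0.01 in U87TR and 0.131 ± 0.0083 in U87MG (SD, n = 3 each), and these overlapped. PSMB8 over PSMB5 was 0.454 ± 0.016 in U87TR and 0.35 ± 0.011 in U87MG, and PSMB9 over PSMB6 was 0.144 ± 0.0029 in U87TR and 0.173 ± 0.0095 in U87MG (SD, n = 3 each). Neither of those ratios overlapped between the lines. PSMD5 fell short of the threshold at -0.25 (SE 0.09, adjusted p = 0.0525). PSMD10 did not pass (0.06, SE 0.07, adjusted p = 0.603).

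**Figure D4:**
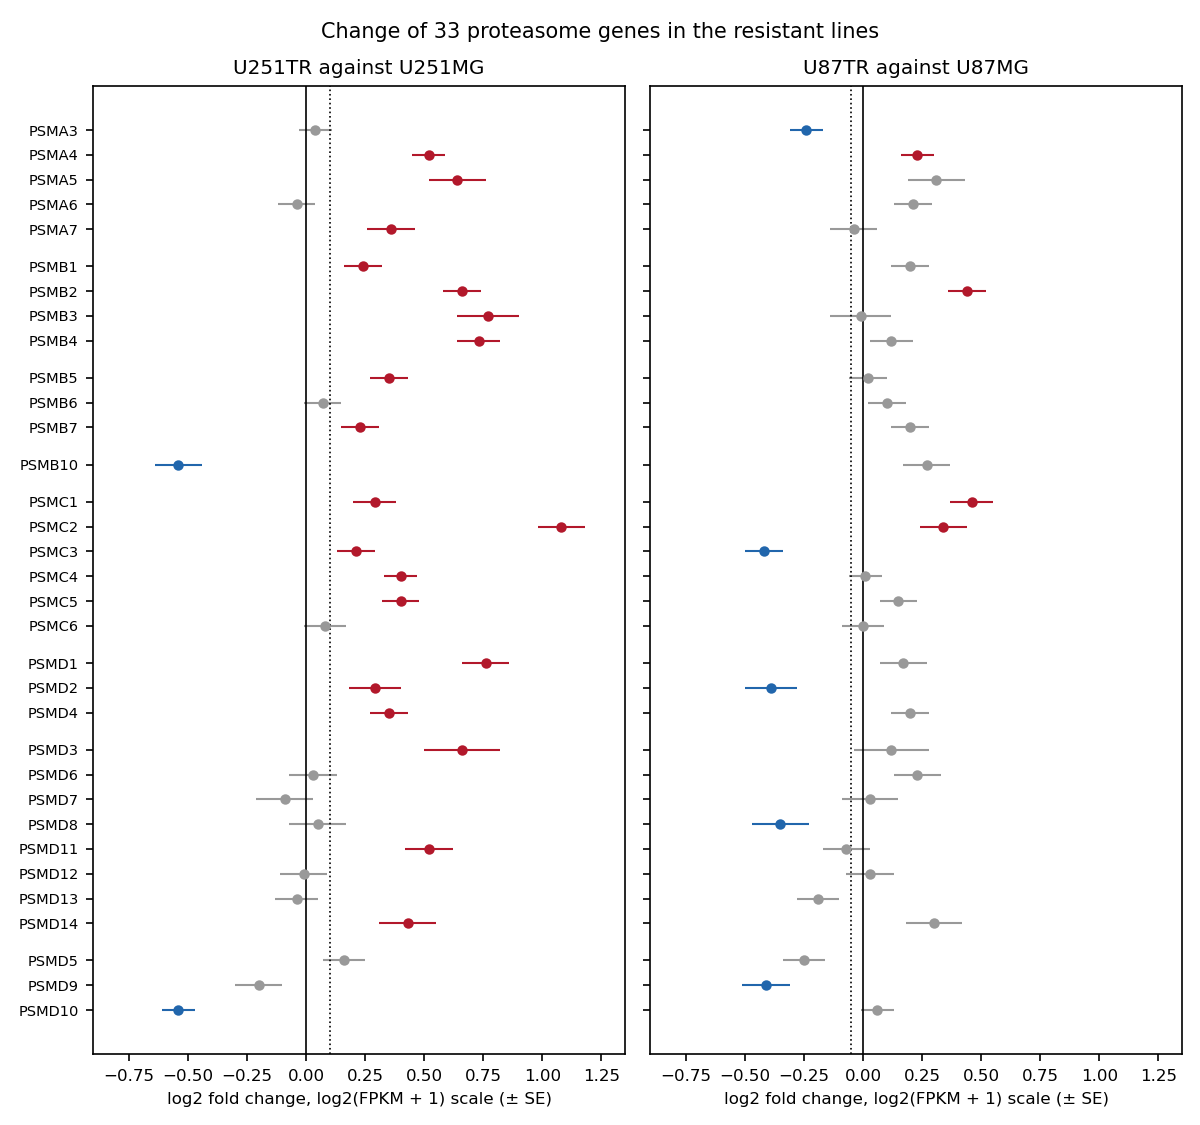
Log2 fold change of each of the 33 genes (points, bars are ± SE of the fit) in U251TR against U251MG (left) and U87TR against U87MG (right), with genes called higher in red, called lower in blue and not called in grey. The dotted line is the median of all tested genes, 0.10 on the left and -0.05 on the right. The left panel has 20 red and 2 blue points, and the right panel has 4 red and 5 blue points. The right counts became 12 and 2 with median-of-ratios scaling, and 2 and 6 without U87MG replicate 3.

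Across both resistant lines, 4 genes were called higher in each (PSMA4, PSMB2, PSMC1 and PSMC2) and no gene was called lower in each. Over all genes 33.6% were called higher and 19.6% lower in U251TR, and 10.6% higher and 17.2% lower in U87TR. The share of all genes called in both lines, or in neither, was not counted, so whether these counts are unusual is not known. PSMC3 and PSMD2 were called higher in U251TR and lower in U87TR, though each of the U251TR calls was lost under 13 of 22 alternatives. In the deposited scaling another 8 genes were called in neither line: PSMA6, PSMB6, PSMC6, PSMD5, PSMD6, PSMD7, PSMD12 and PSMD13. Beside the U251TR calls of PSMB6, PSMD5 and PSMD7 given above, some of them were called in U87TR by other fits. PSMA6 was called higher there under the 3 other scalings, on the 6 U87 libraries alone and without U251MG replicate 2 (adjusted p between 0.0148 and 0.251). PSMD6 was called higher with median-of-ratios factors, on the 6 U87 libraries alone and without U251MG replicate 2 (adjusted p between 0.0185 and 0.27). PSMD5 was called lower without U251MG replicate 2 or U87MG replicate 3 (adjusted p between 0.024 and 0.203). A call in only one of the lines does not show that the changes differed, so the difference itself (the change in U87TR minus the change in U251TR) was tested in the same fit.

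That difference was called for 15 of the 33 genes, 2 of them positive and 13 negative, against 15.4% positive and 32.1% negative over all genes (47.6% together). The median was -0.25, against -0.17 over all genes, which is 0.08 below it. With median-of-ratios factors the median of all genes moved to -0.01 and that of the proteasome genes to -0.06. Of the proteasome genes 5 were then positive and 7 negative (all genes, 21.4% and 23.8%). Relative to all genes the proteasome genes therefore differed by -0.05 under that scaling and by -0.19 under quantile normalization. The positive differences belonged to PSMB10 (0.81, SE 0.15, adjusted p = 0.000731) and PSMD10 (0.60, SE 0.10, adjusted p = 0.000379), the genes that were lower in U251TR. PSMB3 had the most negative difference, -0.78 (SE 0.18, adjusted p = 0.00394), followed by PSMC2 with -0.74 (SE 0.14, adjusted p = 0.00112). PSMD2 had -0.67 (SE 0.16, adjusted p = 0.00404), PSMC3 -0.63 (SE 0.11, adjusted p = 0.000796) and PSMB4 -0.62 (SE 0.13, adjusted p = 0.00232). These 7 calls held under all 21 alternatives for this test. For PSMB2 and PSMC1, higher in both resistant lines, the difference did not pass (-0.22 with adjusted p = 0.109, and 0.16 with adjusted p = 0.295). The PSMB2 difference was called negative for a constant sum and without U251MG replicate 2 (adjusted p between 0.0378 and 0.845 over the alternatives). That of PSMC1 was called positive with median-of-ratios factors (adjusted p between 0.0239 and 0.546).

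The parental lines were also set against each other. U87MG had more transcript of most of the particle than U251MG. Of the 33 genes 21 were called higher in U87MG and 4 lower, against 32.2% higher and 40.1% lower over all genes (72.3% together). The median log2 fold change was 0.35, against -0.09 over all genes. The summed level of the 34 genes was 5933, 5963 and 5574 FPKM in U87MG, against 4346, 4276 and 4186 FPKM in U251MG, a ratio of 1.36. No U251MG library reached the lowest U87MG library. Libraries did not overlap for 21 genes that were higher in U87MG (all genes, 32%) and for 3 that were lower (all genes, 40.3%).

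PSMD3 had the largest parental difference, with 146, 149 and 135 FPKM in U87MG, against 56.6, 93.3 and 53.2 FPKM in U251MG (log2 fold change 1.12, SE 0.16, adjusted p = 5.69e-05). PSMD1 had 93.4, 88.2 and 75.4 FPKM in U87MG, against 37.0, 45.9 and 36.6 FPKM in U251MG (log2 fold change 1.09, SE 0.10, adjusted p = 8.37e-07). The log2 fold change was 1.07 for PSMA5 (SE 0.12, adjusted p = 5.26e-06) and 1.01 for PSMD2 (SE 0.11, adjusted p = 4.54e-06). None of these 4 genes had overlapping libraries. The 4 genes called lower in U87MG were PSMB10 (-0.71, SE 0.10, adjusted p = 4.68e-05), PSMD10 (-0.42, SE 0.07, adjusted p = 0.00016), PSMA6 (-0.37, SE 0.08, adjusted p = 0.00173) and PSMD5 (-0.21, SE 0.09, adjusted p = 0.0456). The call of PSMD5 was lost under 16 of 22 alternatives (adjusted p between 0.0173 and 0.21), and without any 1 library other than U251MG replicate 1 or U87MG replicate 1. U251TR and U87MG were both compared with U251MG, so the same 3 libraries enter both sets of fold changes. By level, PSMB4 had a mean of 332 FPKM in U251TR and 340.2 FPKM in U87MG, and PSMB3 301 FPKM in U251TR and 318 FPKM in U87MG. PSMD1 stood at 67.8 FPKM in U251TR and 85.7 FPKM in U87MG, whereas PSMC2 stood at 162 FPKM in U251TR and 112 FPKM in U87MG.

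The promoter matches and the place of the genes in the genome were set beside the calls. Of the 9 genes with TGACNNNGC in a promoter window, 6 were called higher and 0 lower in U251TR, with a median log2 fold change of 0.40. Of the 19 tested genes with a window and no match, 10 were called higher and 2 lower, with a median of 0.21. In U87TR the counts were 1 higher and 1 lower among the 9 genes, and 3 higher and 4 lower among the 19, with medians of 0.03 and 0.06. Over all 33 tested genes 60.6% were called higher in U251TR and 6.06% lower, and over all genes 33.6% higher and 19.6% lower in U251TR and 10.6% higher and 17.2% lower in U87TR. Whether genes with and without a match differed was not tested. The 34 genes lie on 15 chromosomes. All 4 genes of chromosome 1 (PSMA5, PSMB2, PSMB4 and PSMD4) were called higher in U251TR, and all 4 were called higher in U87MG than in U251MG, PSMD4 not under quantile normalization or without U87MG replicate 1 or 2 (adjusted p between 0.00361 and 0.0661). Of the 6 genes of chromosome 17, 4 were called higher in U251TR, and of the 6 of chromosome 14 (PSMB11, not tested, among them) 2 were. Over all chromosomes together, 33.6% of all genes were called higher in U251TR and 32.2% in U87MG. The shares of all genes on each chromosome were not counted.

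Genes that build, regulate or feed the proteasome were described from lists of 47 genes, PSMB8 and PSMB9 among them. Of the 15 genes listed for the transcription of subunit genes, 6 were called higher and 3 lower in U251TR, and 1 higher and 3 lower in U87TR. Beside these and the following lists, the shares over all genes are 33.6% higher and 19.6% lower in U251TR, and 10.6% higher and 17.2% lower in U87TR. NFE2L1 had 175, 177 and 196 FPKM in U251TR, against 131, 65.6 and 121 FPKM in U251MG (log2 fold change 0.84, SE 0.24, adjusted p = 0.01). The lines did not overlap, and U251MG replicate 2 was far below the other U251MG libraries. The rise of NFE2L1 was therefore smaller without that library. VCP, the ATPase that draws NFE2L1 and other proteins out of the endoplasmic reticulum membrane, had 181, 206 and 199 FPKM in U251TR, against 81.9, 137 and 81.0 FPKM in U251MG (log2 fold change 1.00, SE 0.16, adjusted p = 0.000255). The DNA-binding partners of NFE2L1, the small MAF proteins, moved in opposite directions. MAFG rose by 1.29 (SE 0.16, adjusted p = 3.49e-05), and MAFK and MAFF fell by 1.60 and 1.19 (SE 0.22 and 0.39, adjusted p = 6.21e-05 and 0.0216). MAFF had 4.74, 5.69 and 5.82 FPKM in U251TR, against 21.3, 5.41 and 20.7 FPKM in U251MG. Its libraries overlapped, as U251MG replicate 2 lay within the U251TR range. KEAP1, which holds the related factor NFE2L2 in check, fell by 0.47 (SE 0.11, adjusted p = 0.00338). NGLY1, SYVN1 and NFYC were also called higher. The calls of NFE2L1, VCP, MAFG, MAFK, KEAP1 and NFYC held under all 22 alternatives. That of MAFF was lost under 5 (adjusted p between 9.5e-06 and 0.0987), without U251TR replicate 1 and without U251MG replicate 1 or 3 among them. NGLY1 lost its call under 3 (adjusted p between 0.00328 and 0.112), 1 of them the fit without U251TR replicate 2. SYVN1 lost it under 14 (adjusted p between 0.00984 and 0.332), among them the fits without U251TR replicate 1 or 2, U251MG replicate 1 or 3, any 1 U87TR library and U87MG replicate 1 or 2.

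In U87TR, NFE2L1 had 182, 159 and 154 FPKM, against 115, 144 and 197 FPKM in U87MG, and did not pass (log2 fold change 0.15, SE 0.24, adjusted p = 0.705). The one gene of this list called higher was NFE2L2 (0.35, SE 0.11, adjusted p = 0.0284). MAFG fell by 0.93 (SE 0.16, adjusted p = 0.00116) and SYVN1, a ubiquitin ligase of the endoplasmic reticulum, by 0.84 (SE 0.07, adjusted p = 3.83e-06). NFYA was the third gene called lower (-0.40, SE 0.10, adjusted p = 0.0143, between 0.00263 and 0.0633 over the alternatives), a call lost without U87MG replicate 1 or 2. NFE2L2 lost its call without any 1 U87TR library and without U87MG replicate 1 or 2 (adjusted p between 0.00306 and 0.0894). Of the 15 genes, 2 had a positive and 5 a negative called difference between the lines, against 15.4% and 32.1% of all genes. The negative ones were MAFG (-2.22, SE 0.23, adjusted p = 1.12e-05), SYVN1 (-1.03, SE 0.10, adjusted p = 7.93e-06), SEL1L (-0.92, SE 0.29, adjusted p = 0.0201), VCP (-0.84, SE 0.23, adjusted p = 0.00987) and NGLY1 (-0.44, SE 0.11, adjusted p = 0.00657). The positive ones were MAFK (1.15, SE 0.31, adjusted p = 0.00888) and KEAP1 (0.48, SE 0.16, adjusted p = 0.0252). SEL1L lost its call with no filter and with median-of-ratios factors (adjusted p between 0.0124 and 0.0599), and NGLY1 with median-of-ratios factors and quantile normalization (adjusted p between 0.00317 and 0.0859). KEAP1 lost it with no filter and without U251TR replicate 1, U87TR replicate 2 or 3 or U87MG replicate 3 (adjusted p between 0.00377 and 0.0621). For NFE2L1 the difference of -0.70 (SE 0.33) did not pass (adjusted p = 0.108).

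The 15 genes of factors that bind the finished particle had 4 called higher and 0 lower in U251TR, and 3 higher and 2 lower in U87TR. ADRM1, a ubiquitin receptor of the base, had 224, 239 and 256 FPKM in U251TR, against 186, 133 and 172 FPKM in U251MG (log2 fold change 0.56, SE 0.11, adjusted p = 0.00131). Its partner UCHL5, a deubiquitinating enzyme, was called higher in both resistant lines, by 0.55 in U251TR (SE 0.10, adjusted p = 0.000417) and by 0.45 in U87TR (SE 0.10, adjusted p = 0.00428). So was SHFM1, the small lid subunit now named SEM1, by 0.29 in U251TR and 0.39 in U87TR (SE 0.10 each, adjusted p = 0.0297 and 0.0116). The U251TR call of SHFM1 was lost under 7 alternatives (adjusted p between 0.00369 and 0.144), without U251TR replicate 2 or 3 and without U251MG replicate 1 or 3 among them, and its U87TR call without U87TR replicate 3 (adjusted p between 0.00295 and 0.0523). UBE3C was the fourth gene called higher in U251TR, a call lost with median-of-ratios factors, and USP14 the third in U87TR, a call lost without U87TR replicate 2. TXNL1 was called lower in U87TR (-0.50, SE 0.11, adjusted p = 0.00688) under all alternatives. UBQLN4 was called lower as well (-0.28, SE 0.09, adjusted p = 0.034) and lost its call under 10 alternatives (adjusted p between 0.00892 and 0.148), among them the 3 other scalings and the fits without any 1 U87TR library or U87MG replicate 1 or 2.

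Among 5 activators and inhibitors of the core, PSME2 was called higher and PSMF1, an inhibitor, lower in both resistant lines. PSME2 rose by 0.31 in U251TR and 0.40 in U87TR (SE 0.11 each, adjusted p = 0.0268 and 0.0151), and PSMF1 fell by 0.27 in U251TR and 0.34 in U87TR (SE 0.08 each, adjusted p = 0.0172 and 0.0104). The PSME2 call was lost in U251TR under 6 alternatives (adjusted p between 0.00215 and 0.159), without U251TR replicate 2 or 3 and without U251MG replicate 2 among them, and in U87TR without U87TR replicate 3 or U87MG replicate 1 (adjusted p between 0.00402 and 0.0674). The PSMF1 call was lost in U251TR for a constant sum and without U251TR replicate 1 (adjusted p between 0.00243 and 0.116), and in U87TR with quantile normalization and without U87TR replicate 2 (adjusted p between 0.00464 and 0.0522). Of 6 assembly factors, PAAF1, which binds the ATPases, was called higher in U251TR (0.53, SE 0.11, adjusted p = 0.00126) and PSMG4, an alpha ring chaperone, lower (-0.64, SE 0.11, adjusted p = 0.000287), and none was called in U87TR. POMP, which helps to form the beta rings, did not pass in either line. Both enzymes that activate ubiquitin were called lower in U251TR. UBA1 had 120.2, 122 and 120.4 FPKM in U251TR, against 206, 219 and 197 FPKM in U251MG (log2 fold change -0.77, SE 0.06, adjusted p = 6.86e-07). In U87TR UBA1 did not pass (-0.08, SE 0.06, adjusted p = 0.356), and its difference between the lines was called (0.69, SE 0.08, adjusted p = 4.41e-05). UBA6 fell by 0.95 in U251TR (SE 0.17, adjusted p = 0.000547) and by 0.69 in U87TR (SE 0.17, adjusted p = 0.0101).

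**Figure D5:**
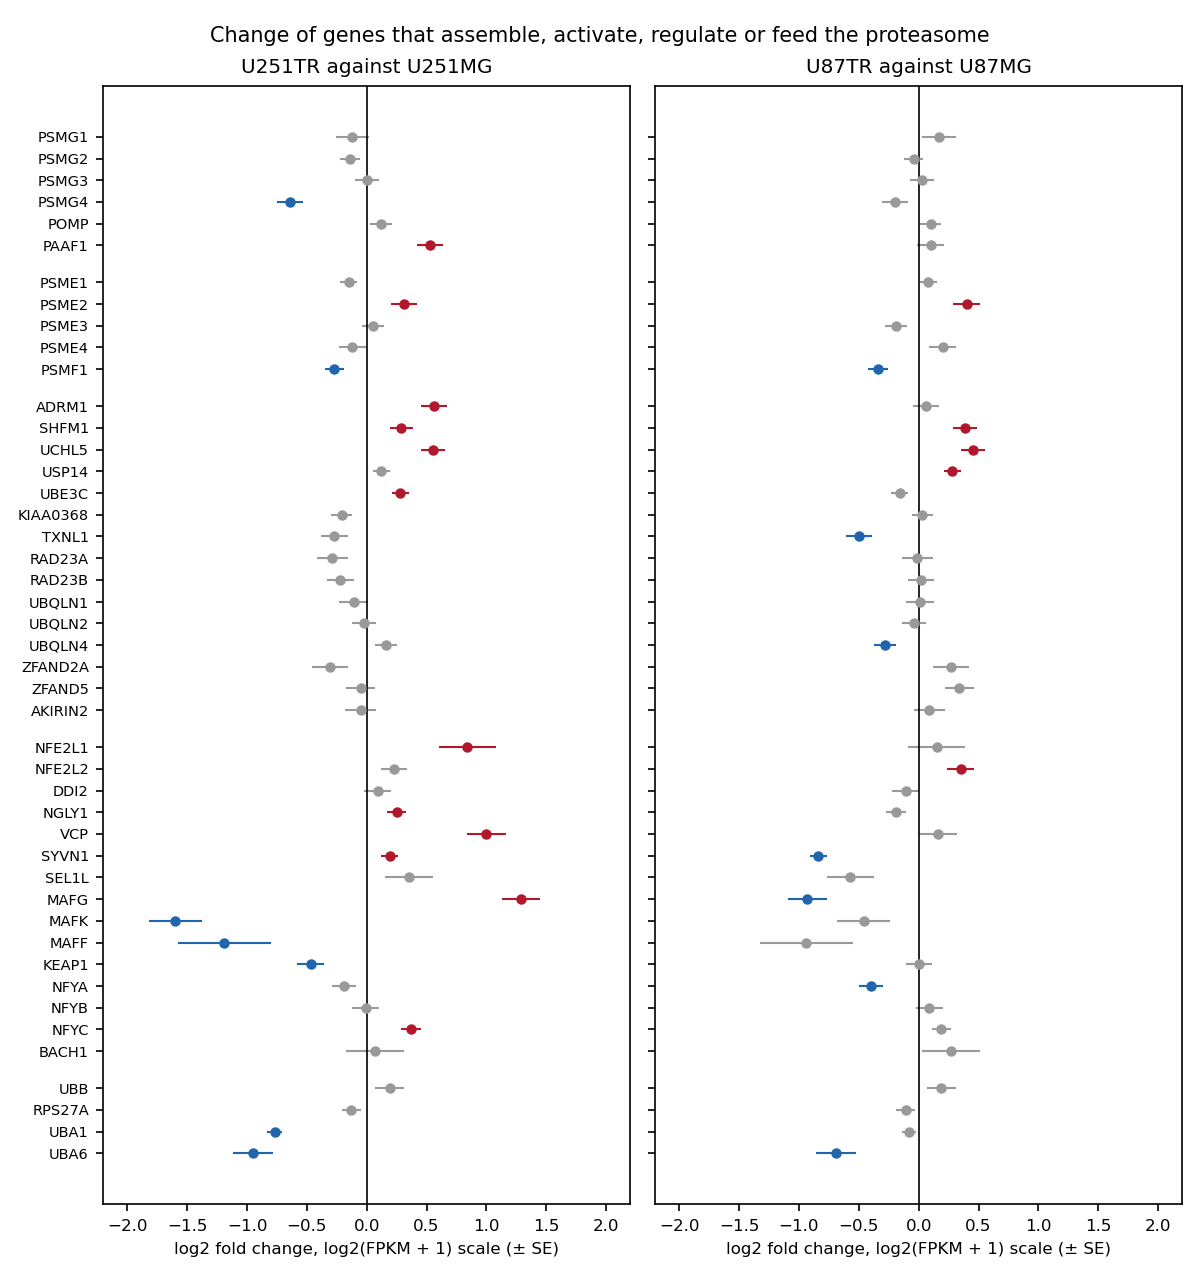
Log2 fold change (points, bars are ± SE of the fit) of genes that assemble, activate, bind, regulate or feed the proteasome, in U251TR against U251MG (left) and U87TR against U87MG (right), with genes called higher in red, called lower in blue and not called in grey. VCP, NFE2L1 and MAFG are red in the left panel with values from 0.84 to 1.29, and MAFG is blue in the right panel at -0.93.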

How the data were processed

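The authors deposited 1 table of expression values by gene symbol for 12 RNA sequencing libraries. Its unit is not named. Taking the values as FPKM, value times mean transcript length summed to 0.911 to 0.976 of what FPKM would give, so the deposited values were read as FPKM. With the length of 1 canonical transcript per gene that sum was 1.594 to 1.735, so the unit is inferred and not certain. Per the submitters' processing notes, STAR 2.5.2b and RSEM 1.2.31 were used; they name build hg19, while the design text names hg38. Date-like symbols (27 rows) were left out. Values were taken as log2(FPKM + 1), and limma 3.58.1 (R 4.3.3) fitted 1 mean per line over the 12 libraries, moderated robustly along the mean-variance trend. P-values are two-sided, Benjamini-Hochberg adjusted over 15449 genes (at least 1 FPKM in 3 libraries), threshold 0.05. Fold changes understate changes of low genes. SD is between libraries, SE is from the fit. The genes and lists were chosen with earlier results of these data known. Fully described genes are the catalytic genes and PSMB10, up to 6 largest calls per direction, and the largest differences; others were chosen after their values were seen. The fit was tested on simulated data, in which 50 genes per fold change and line were changed among 15449. In the deposited data 53.2% of genes were called in U251TR and 27.8% in U87TR, so recovery there can differ. In the simulated data the fit recovered 30% of 1.3-fold changes in U251TR and 20% in U87TR, and 58% and 56% of 1.5-fold changes. Of 2.0-fold changes it recovered 90% and 92%. A gene that did not pass is therefore not shown to be unchanged. Replicate numbers did not pair the libraries. Alternatives are other pseudocounts (0.1, 5), filters, scalings, a replicate block and left-out libraries. Of 12 pseudogene symbols of the family, all were under 2 FPKM. Some genes of the lists are not reported here.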

Additional observations from a re-analysis of the deposited data

Results flagged for a closer look

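The change in U87TR against U87MG differed from the change in U251TR against U251MG for 15 of the 33 proteasome genes by the test of the difference (limma, adjusted p under 0.05 over all genes), where 47.6% of all genes did so. All values are log2 differences, the U87 change minus the U251 change. The 2 positive ones were 0.81 for PSMB10 and 0.60 for PSMD10. In the core particle the negative ones were -0.78 for PSMB3, -0.62 for PSMB4, -0.40 for PSMA7, -0.32 for PSMB5, -0.30 for PSMA4 and -0.29 for PSMA3. In the base they were -0.74 for PSMC2, -0.67 for PSMD2, -0.63 for PSMC3, -0.59 for PSMD1 and -0.40 for PSMC4. The lid gene PSMD11 had -0.59 and the base chaperone PSMD5 -0.41. Of 21 alternatives, PSMA3 lost its call under 12, PSMB5 under 11, PSMA4 under 10, PSMA7 under 10, PSMD5 under 2 (median-of-ratios factors and quantile normalization) and PSMC4 under 1 (median-of-ratios factors). For PSMA3, PSMB5, PSMA4 and PSMA7 median-of-ratios factors and the fits without U251TR replicate 2, U87TR replicate 1 and U87MG replicate 1 or 2 were among these. The adjusted p reached 0.474 for PSMA3, 0.385 for PSMB5, 0.398 for PSMA4 and 0.307 for PSMA7. The calls of the other 9 genes held in all 21. The library codes of U87TR belong to their own number block, so these differences cannot be told apart from that block.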

How the results depend on the processing

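For U251TR against U251MG, the count of 22 calls stayed within 1.5 times under all alternatives, and 20 genes higher became 13 with median-of-ratios factors. With these factors 28.1% of all genes were called higher, against 33.6% in the deposited scaling. Leaving out 1 library at a time gave 17 to 22 calls, 15 to 20 higher and 2 to 3 lower. Of all genes 28.5% to 36.9% were called higher in those fits and 16.6% to 20.9% lower. For U87TR against U87MG, 9 calls became 14 for a constant sum, 14 with median-of-ratios factors, 15 with quantile normalization and 15 on the 6 U87 libraries alone, with 10, 12, 11 and 10 higher (4 in the deposited scaling), and 4, 2, 4 and 5 lower (5 in the deposited scaling). Of all genes 11.9%, 14.1%, 13.1% and 13.0% were called higher in these 4 fits, and 13.3%, 12.7%, 14.0% and 21.4% lower. Leave-one-out fits gave 4 to 16 calls, 2 to 10 higher and 2 to 6 lower (all genes, 7.43% to 14.1% higher and 11.2% to 22.7% lower). For the difference between the lines, 2 positive and 13 negative became 5 and 7 with median-of-ratios factors (all genes, 21.4% and 23.8%). Leave-one-out fits gave 11 to 17 calls, 2 to 3 positive and 9 to 14 negative (all genes, 13.0% to 17.3% positive and 27.5% to 37.0% negative). For the parental lines they gave 21 to 28 calls, 18 to 24 higher and 3 to 4 lower (all genes, 29.6% to 34.4% higher and 37.7% to 40.3% lower). The cause of these shifts was not tested. The values that changed sign were not called in the deposited scaling. For U251TR, with median-of-ratios factors PSMA3 gave -0.06, PSMB6 -0.04, PSMC6 -0.02, PSMD6 -0.07 and PSMD8 -0.06, and for a constant sum PSMA6 gave 0.08, PSMD7 0.02, PSMD12 0.1 and PSMD13 0.07. Leave-one-out ranges there were -0.01 to 0.08 for PSMA3, -0.13 to 0.02 for PSMA6, -0.0 to 0.14 for PSMB6, -0.05 to 0.15 for PSMD6, -0.25 to 0.03 for PSMD7, -0.06 to 0.13 for PSMD8, -0.14 to 0.06 for PSMD12 and -0.1 to 0.04 for PSMD13. For U87TR, a constant sum gave 0.01 for PSMA7 and 0.04 for PSMB3, and median-of-ratios factors 0.05 for PSMA7, 0.08 for PSMB3 and 0.02 for PSMD11. Leave-one-out ranges were -0.1 to 0.03 for PSMA7, -0.08 to 0.06 for PSMB3, -0.03 to 0.06 for PSMB5, -0.03 to 0.04 for PSMC4 and -0.03 to 0.35 for NFE2L1. In the difference between the lines PSMB6 gave -0.03 for a constant sum and PSMB7 0.16 with median-of-ratios factors, with leave-one-out ranges of -0.04 to 0.1 and -0.09 to 0.04. In the parental comparison PSMB6 gave 0.03 for a constant sum and 0.09 with median-of-ratios factors, and -0.02 to 0.02 in leave-one-out fits. Replicate numbers did not pair the libraries (correlation of deviations between -0.058 and 0.116), and a fit with the replicate number as a block gave 21, 8, 14 and 24 calls, against 22, 9, 15 and 25 without the block, in the order of the comparisons above. The unknown depth and 3 libraries per line limit what small differences these data can show.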

Other observations

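PSMD5-AS1, the antisense neighbour of PSMD5, followed the cell line more than PSMD5 did. It had 30.6, 25.4 and 27.4 FPKM in U251TR and 23.7, 20.7 and 20.9 FPKM in U251MG, against 3.37, 2.58 and 2.87 FPKM in U87TR and 1.39, 2.08 and 3.04 FPKM in U87MG. PSMD5 itself lay between 14.1 and 24.2 FPKM in all 12 libraries.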
